A study of Mus musculus with 96 samples.

Results

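Gastrocnemius muscle of male C57BL/6J mice that ate a ketogenic diet (KD) throughout was compared with that of mice that ate a high-fat diet (HFD) throughout. The comparison rests on 14 of the 96 libraries of the study, 7 from KD and 7 from HFD. They were chosen by the tissue and treatment given in the labels. Both groups were bought at 11 weeks of age, housed singly, started on their diet at 12 weeks and sampled at 26 weeks. Fat supplied 90% of energy in KD, which was based on cocoa butter, and 60% in HFD, which was based on lard, so the diets differed in the source of fat as well as in its share. A standard diet (SD, 10% fat, 8 libraries) is given beside them, and the other gastrocnemius groups ate HFD until 18 weeks and then switched to another regimen. The labels do not name the mouse behind a library, so p-values measure the spread between libraries.

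The gastrocnemius is a calf muscle of mice made mostly of fast fibres, with slow fibres in its deep part and fat cells and nerve branches between them. A diet with very little carbohydrate leaves fatty acids and ketone bodies as the main fuels. The liver makes ketone bodies, and muscle takes them up and oxidises them through the enzymes encoded by Bdh1, Oxct1 and Acat1. Fatty acids also bind the nuclear receptors of the PPAR family, whose known target genes in muscle include Pdk4, Ucp3, Angptl4 and Cpt1b. A high-fat diet makes mice of this strain obese, with larger fat depots that release leptin and acute-phase proteins.

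Values are the deposited log2 expression values, compared within a gene. A gene was tested where it reached the log2 of 10 in at least 6 of the 14 libraries. A gene counts as called where its p from limma, adjusted over all tested genes by the Benjamini-Hochberg method, was under 0.05. Of 15440 genes tested, 47 were called (0.304%), 18 higher in KD (0.117%) and 29 lower (0.188%). For each of the 47, all 7 KD libraries lay on the called side of the HFD mean, and in 20 of them the groups did not overlap. The same libraries gave the calls, so these counts describe the called genes and are no further evidence. Over all genes tested, the KD libraries lay wholly above the HFD libraries in 0.123% and wholly below in 0.188%. Muscle markers were abundant in both groups: Myh4, the fast myosin of type IIb fibres, averaged 19.91 in KD and 19.88 in HFD, and Ckm, muscle creatine kinase, 18.87 and 18.79. The highest correlation between any pair of the 14 libraries was 0.997, and no library was a copy of another.

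**Figure D1:**
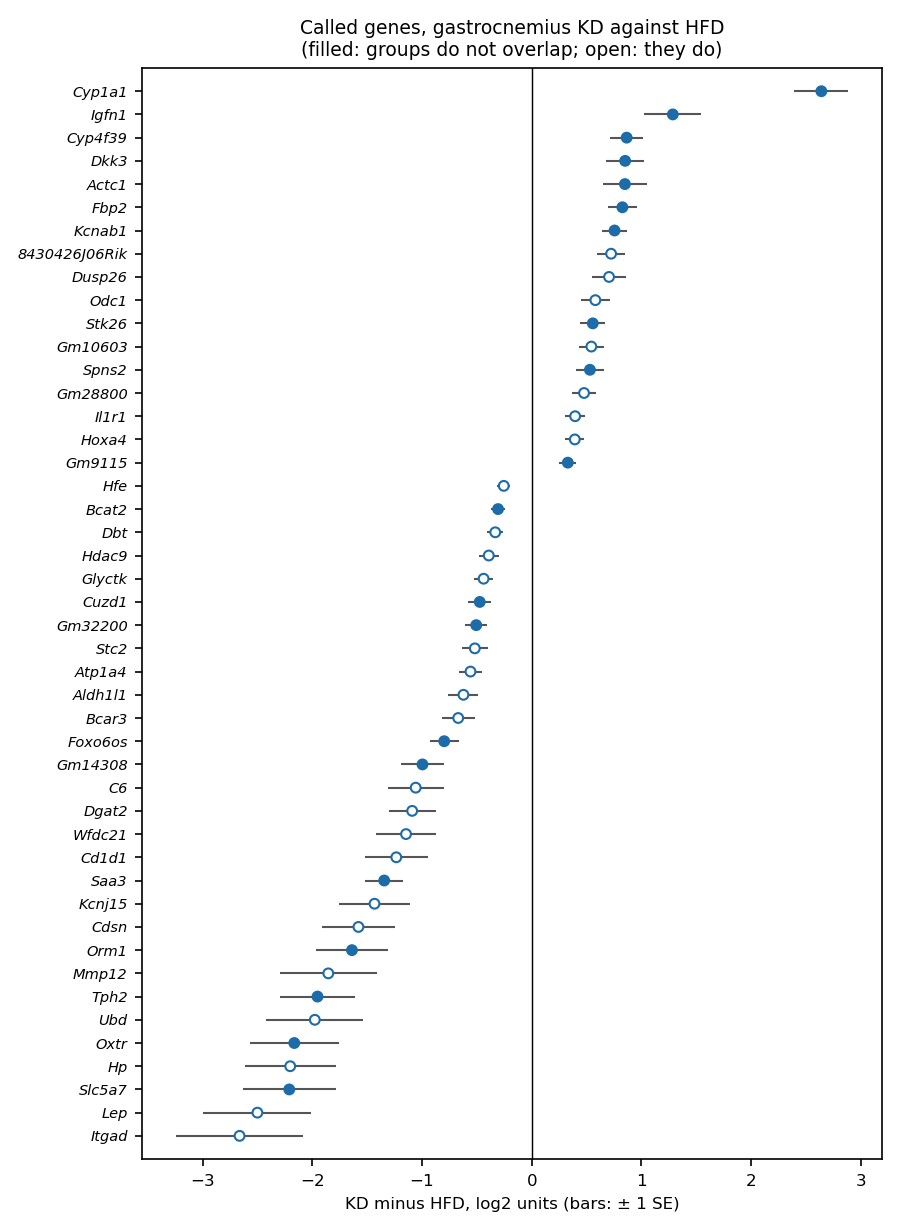
Difference KD minus HFD in log2 units for 46 of the 47 called genes, as limma estimates with 1 SE; filled points mark genes whose 7 KD and 7 HFD libraries did not overlap. Cyp1a1 stands apart among the higher genes at 2.64, and the lower genes reach -2.66 for Itgad and -2.50 for Lep.

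Cyp1a1, a cytochrome P450 that oxidises aromatic compounds and is the classical target of the aryl hydrocarbon receptor, was the gene with the smallest p. Its lowest, median and highest values were 7.41, 8.28 and 8.73 in KD and 5.43, 5.47 and 5.76 in HFD. Every KD library lay above every HFD library, and the HFD libraries lay close together. The difference was 2.64 ± 0.25 log2 units (SE, n = 7 and 7; limma adjusted p = 6.98e-10; chromosome 9, 57687928 to 57703824, GRCm38). In SD the values ran from 5.52 over 6.06 to 7.12. KD stood 1.97 above SD (adjusted p = 1.91e-06) and HFD differed from SD by -0.67 (adjusted p = 0.407). KD against SD called 0.207% of the genes tested and HFD against SD 0.0194%. The groups switched from HFD to KD at 18 weeks averaged 7.69 ± 0.46 without a running wheel and 7.91 ± 0.89 with one (SD, n = 7 and 6). Those kept on HFD with a wheel averaged 5.76 ± 0.17, and those switched to SD averaged 5.80 ± 0.24 (n = 7 each). All 3 groups on KD at sampling had means above those of the other 4 groups.

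No other member of the aryl hydrocarbon receptor list was called, of 11 tested from 14. Cyp1b1, another P450 that the receptor is known to induce, averaged 7.82 in KD and 7.24 in HFD (difference 0.58 ± 0.20, limma adjusted p = 0.391). Tiparp, a receptor-induced inhibitor of the pathway, differed by 0.15 ± 0.08 (adjusted p = 0.887), and Ahr, the receptor itself, by -0.01 ± 0.15 (adjusted p = 0.997). Ugt1a6a and Nqo1, also on the list, differed by -0.61 ± 0.28 and -0.22 ± 0.11 (adjusted p = 0.772 and 0.859). Of the 11 differences, 6 were positive and 5 negative. The median of the list was 0.03, against 0.0047 over all genes tested. Cyp4f39, a P450 that hydroxylates very long fatty acids, was called as well. Its values were 5.29, 5.82 and 6.02 in KD and 4.51, 4.84 and 5.16 in HFD. The groups did not overlap, and the difference was 0.87 ± 0.15 (adjusted p = 0.00162). KD also stood 0.67 above SD (adjusted p = 0.0239), while HFD differed from SD by -0.20 (adjusted p = 0.694).

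The stretches before the RefSeq starts of these P450 genes are shown because the aryl hydrocarbon receptor is known to bind a short core, GCGTG, which was searched on both strands. Each is 250 bases, read 5′ to 3′ on the gene's strand from the promoter table of RefSeq (GRCm38.p6), in lower case with the core in capitals (CACGC is the core on the other strand). The RefSeq start used for Cyp1a1 lies inside the GENCODE range given above, downstream of where that range begins.
Cyp1a1, chr9:57697363-57697612, plus strand: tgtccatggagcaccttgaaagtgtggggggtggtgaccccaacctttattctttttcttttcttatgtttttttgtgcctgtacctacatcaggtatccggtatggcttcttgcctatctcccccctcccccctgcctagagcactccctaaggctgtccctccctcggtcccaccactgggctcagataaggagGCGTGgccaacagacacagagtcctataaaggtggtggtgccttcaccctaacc
Cyp4f39, chr17:32452473-32452722, plus strand: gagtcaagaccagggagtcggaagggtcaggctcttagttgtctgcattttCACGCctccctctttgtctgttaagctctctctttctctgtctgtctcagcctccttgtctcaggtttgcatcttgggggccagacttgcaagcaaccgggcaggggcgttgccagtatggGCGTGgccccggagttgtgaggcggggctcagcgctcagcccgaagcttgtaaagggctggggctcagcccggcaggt
Cyp1a1 holds 1 match and Cyp4f39 holds 2. The core is short and common: 28.2% of the 32851 promoter stretches of this length hold it. By gene, 8 of the 35 called genes with an entry hold it (22.9%), against 30.9% of all 27025 genes in the table. They were Cyp1a1, Cyp4f39, Odc1, Spns2 and Il1r1, which were higher in KD, and Stc2, Bcar3 and Oxtr, which were lower. The site that PPAR binds with its partner receptor, in its exact form of AGGTCA given 2 times with 1 base between and searched on both strands, was in 0.0335% of the stretches and before none of the 35 genes. A match describes the letters in this window and is not evidence of binding.

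**Figure D2:**
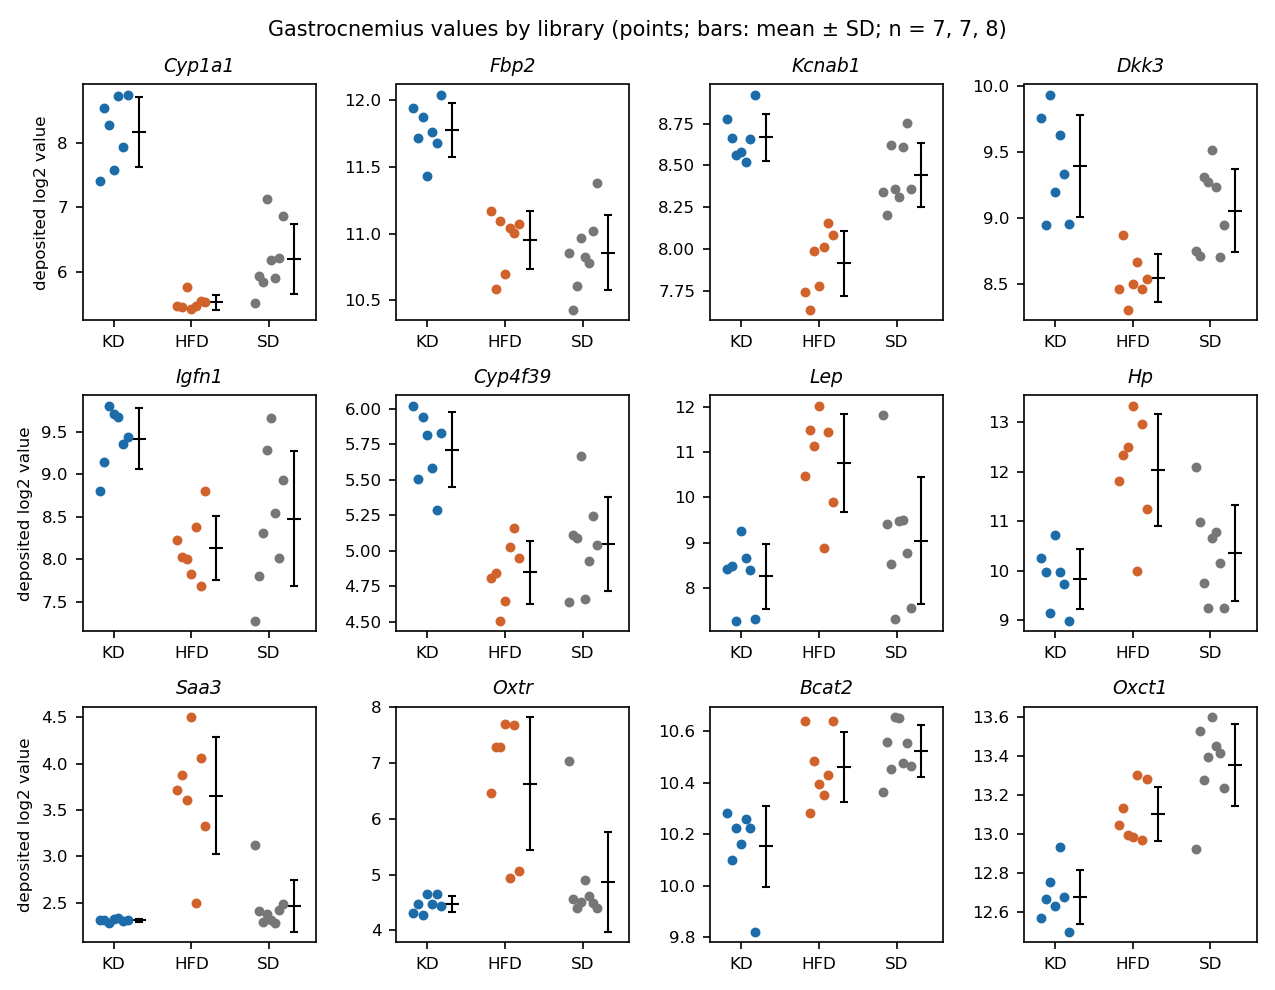
Deposited log2 value of each library (points) with the group mean and SD (bars) for 12 genes, in KD, HFD and SD gastrocnemius. Cyp1a1, Fbp2, Kcnab1, Dkk3, Igfn1 and Cyp4f39 have every KD library above every HFD library, and Saa3, Oxtr, Bcat2 and Oxct1 have every KD library below; Lep and Hp overlap.

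In sugar metabolism the called gene was Fbp2, the muscle fructose-bisphosphatase, which reverses the committing step of glycolysis and was higher in KD. Its values were 11.43, 11.76 and 12.04 in KD and 10.59, 11.04 and 11.17 in HFD. The groups were separate, with a difference of 0.83 ± 0.13 (limma adjusted p = 0.000607). KD stood 0.92 above SD (adjusted p = 4.92e-05), and HFD differed from SD by 0.09 (adjusted p = 0.82). Fbp2 also averaged 11.68 ± 0.20 and 11.59 ± 0.23 in the switched KD groups without and with a wheel (SD, n = 7 and 6). Fbp2 was the 1 called member of 14 tested in the gluconeogenesis list, where 10 differences were negative and the median was -0.10. Gpt, an alanine aminotransferase, came next by p, at -0.42 ± 0.10 (adjusted p = 0.0539). No member of the glycolysis list was called among 24 tested (median 0.02), nor among 21 of glycogen metabolism (median -0.01).

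Odc1, the rate-limiting enzyme of polyamine synthesis, averaged 13.46 ± 0.30 in KD and 12.88 ± 0.23 in HFD (SD, n = 7 each; difference 0.58 ± 0.13, adjusted p = 0.0307). It was the 1 called member of 14 tested in the polyamine list.

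In branched-chain amino acid breakdown Bcat2 and Dbt fell, the only called members, and 24 of 25 members tested had a negative difference, against 48.0% of all genes. The median difference was -0.14, and 11 of the 25 had an unadjusted p under 0.05, against 892 of all 15440 genes. Bcat2, the mitochondrial aminotransferase that takes the amino group off leucine, isoleucine and valine, had 9.82, 10.22 and 10.28 in KD and 10.28, 10.43 and 10.64 in HFD. Its groups touched without overlapping, and KD replicate 7 lay well below the other KD libraries. The difference was -0.31 ± 0.06 (limma adjusted p = 0.00694). Dbt, the transacylase core of the branched-chain ketoacid dehydrogenase, had 9.27, 9.45 and 9.69 in KD and 9.65, 9.75 and 9.87 in HFD. Its groups overlapped slightly, with a difference of -0.33 ± 0.07 (adjusted p = 0.0145). Without KD replicate 7 the difference was -0.31, with an adjusted p of 0.0632.

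Both genes lay below SD in KD and near it in HFD. Bcat2 differed from SD by -0.37 in KD (limma adjusted p = 0.0004) and by -0.06 in HFD (adjusted p = 0.751). For Dbt the differences were -0.40 in KD (adjusted p = 0.00135) and -0.07 in HFD (adjusted p = 0.763). The other members that came nearest to a call were Bckdhb, a subunit of the same dehydrogenase (-0.26 ± 0.07, adjusted p = 0.0798), Mccc2, of methylcrotonyl-CoA carboxylase (-0.21 ± 0.06, adjusted p = 0.147), and Ivd, of leucine breakdown (-0.37 ± 0.11, adjusted p = 0.163). Acadsb, of isoleucine breakdown, differed by -0.26 ± 0.08 (adjusted p = 0.24). With library quality weights, Ivd (-0.34, limma adjusted p = 0.0492) and Acadsb (-0.25, adjusted p = 0.0431) were called. Bckdk, the kinase that switches the dehydrogenase off, differed by -0.005 ± 0.06 (adjusted p = 0.996). In the library score of the list, the mean centred value of its members, KD ran from -0.25 to 0.0008 and HFD from -0.03 to 0.06. The exons of Bcat2 overlap those of an antisense RNA, and the kit is not stated to mark the strand. Reads from the shared stretch, whose length was not measured, therefore cannot be told apart. The same holds for Kcnab1, Oxct1, Bdh1, Aldh1l1, Bcar3, Kcnj15, Hoxa4 and Glyctk, each with an RNA on the other strand. It also holds for Spns2 with Mybbp1a, Mmp12 with Mmp1b, Gm10603 with C2cd3 and Gm28800 with Zranb3. Exons of Cpt1b overlap those of Gm44502 on the same strand.

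Oxct1, the succinyl-CoA transferase that commits ketone bodies to oxidation, was lower in KD in every library but did not pass the threshold. Its values were 12.50, 12.67 and 12.93 in KD and 12.97, 13.05 and 13.30 in HFD, so the groups did not overlap. The difference was -0.43 ± 0.11 (limma adjusted p = 0.0632). It was called where only the KD and HFD libraries were fitted (adjusted p = 0.0279), and adjusted p ran from 0.0279 to 0.174 over 24 alternatives, of which 6 called it. Against SD, Oxct1 differed by -0.68 in KD (adjusted p = 0.000196) and by -0.25 in HFD (adjusted p = 0.476). Bdh1, which interconverts the main ketone bodies, averaged 10.13 ± 0.33 in KD and 10.85 ± 0.37 in HFD (SD, n = 7 each; difference -0.72 ± 0.32, adjusted p = 0.746). With the myelin and slow fibre scores as covariates, Bdh1 differed by -0.24 (limma adjusted p = 0.976) and Oxct1 by -0.34 (adjusted p = 0.157). Slc16a1, a carrier of ketone bodies and lactate, differed by -0.12 ± 0.16 (adjusted p = 0.996). No member of the ketone list was called among 15 tested; 9 differences were negative and the median was -0.12.

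**Figure D3:**
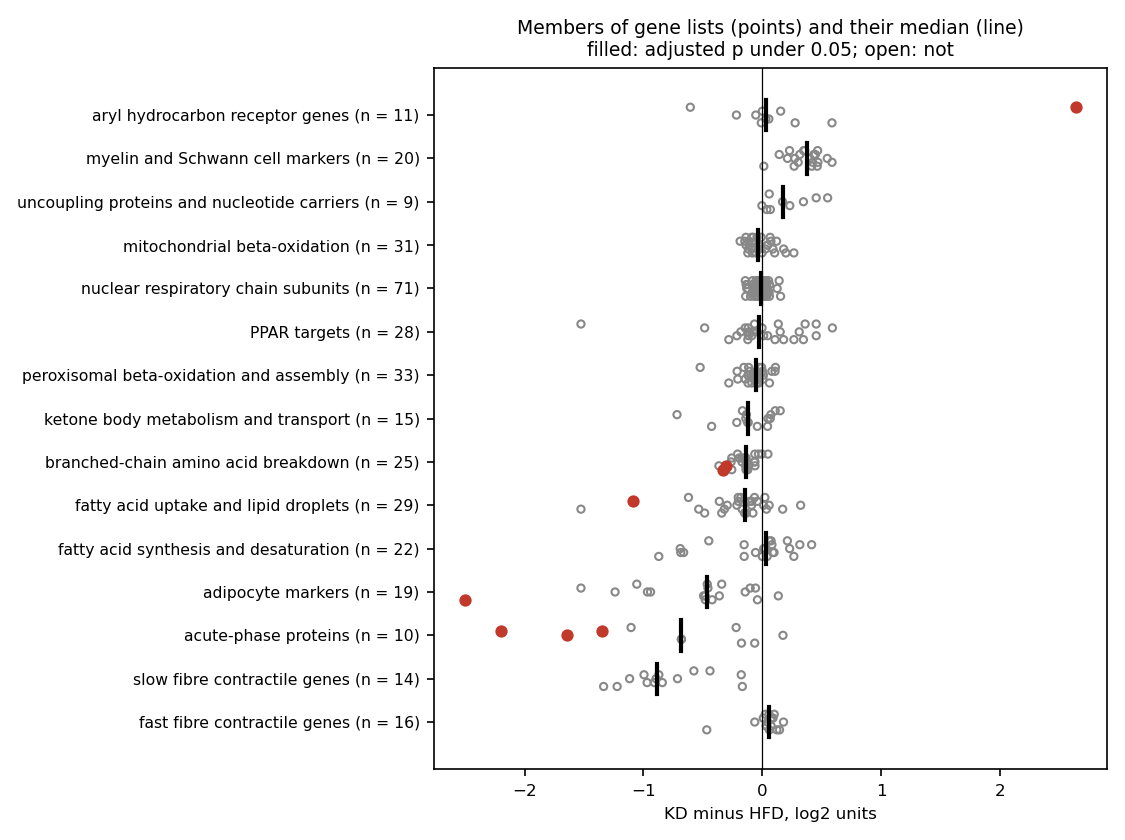
Difference KD minus HFD in log2 units of each tested member of 15 gene lists (points), with the list median (vertical line); filled points are called genes. The slow fibre list lies wholly below 0 and the myelin list wholly above 0, with no called member in either, while the mitochondrial beta-oxidation and respiratory chain lists lie close to 0.

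The fatty acid oxidation genes gave no call. Of 31 genes of mitochondrial beta-oxidation tested, none was called, with differences from -0.19 to 0.26 and a median of -0.04. An unadjusted p under 0.05 was found for 3 of the 31, against 892 of all 15440 genes. Cpt1b, the muscle gatekeeper of fatty acid entry into mitochondria, had 13.04, 13.06 and 13.57 in KD and 13.004, 13.10 and 13.33 in HFD (difference 0.04 ± 0.13, limma adjusted p = 0.996). Acadl, a long-chain dehydrogenase, averaged 13.85 ± 0.19 in KD and 13.58 ± 0.17 in HFD (adjusted p = 0.836), and it stood 0.55 above SD in KD (adjusted p = 0.0281). None of 33 peroxisomal genes was called, although 26 differences were negative (median -0.05). No nuclear subunit of the respiratory chain was called among 71 (differences -0.14 to 0.15), and no mitochondrially encoded gene among 13.

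Known PPAR targets gave no call among 28 tested, with 13 positive differences and a median of -0.02. Cidec, a lipid droplet protein that is also on the adipocyte list, had the smallest adjusted p of the list, with a difference of -1.53 ± 0.40 (limma adjusted p = 0.1). Of the positive differences Ucp3, a mitochondrial carrier of muscle, came nearest to a call, with 12.52, 12.89 and 13.17 in KD and 12.28, 12.50 and 12.71 in HFD. The groups overlapped, and the difference was 0.45 ± 0.12 (limma adjusted p = 0.111). Against SD, Ucp3 differed by -0.61 in HFD (adjusted p = 0.036) and by -0.16 in KD (adjusted p = 0.613). It was called with library quality weights (0.44, adjusted p = 0.0475) and without KD replicate 4 (adjusted p = 0.0415). Slc25a30, another carrier of the same family, differed by 0.55 ± 0.16 (adjusted p = 0.179). Pdk4, the kinase that shuts pyruvate dehydrogenase, averaged 15.50 ± 0.29 in KD and 15.05 ± 0.29 in HFD (SD, n = 7 each; adjusted p = 0.625), and Angptl4, a lipase inhibitor, 10.10 ± 0.34 and 10.09 ± 0.40 (adjusted p = 0.997). Acot1 and Acot2, acyl-CoA thioesterases with similar sequences between which reads may be split, differed by 0.59 ± 0.27 and 0.36 ± 0.19 (adjusted p = 0.772 and 0.885). With the myelin and slow fibre scores as covariates, Acot1 was called at 0.93 (adjusted p = 0.00758) and Pdk4 at 0.66 (adjusted p = 0.0464).

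Dgat2, which makes the last bond of triglyceride, was the called member of the list of fatty acid uptake and lipid droplets. It had 10.32, 10.52 and 11.10 in KD and 10.98, 11.82 and 12.29 in HFD. The groups overlapped, with a difference of -1.09 ± 0.22 (limma adjusted p = 0.00694). Of 29 members tested, 23 had a negative difference and the median was -0.15. Cidec averaged 9.07 in KD and 10.59 in HFD and was not called. G0s2, an inhibitor of the main triglyceride lipase, lay lower in KD without overlap (-0.62 ± 0.19) and was not called (adjusted p = 0.24). The fatty acid synthesis genes Fasn and Scd1 differed by -0.66 ± 0.30 and -0.69 ± 0.39 (adjusted p = 0.772 and 0.932). No member of that list was called among 22. Slc2a4, the insulin-responsive glucose carrier, had 13.69 ± 0.22 in KD and 13.88 ± 0.13 in HFD (adjusted p = 0.754), and it stood -0.43 from SD in KD (adjusted p = 0.00628).

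Lep, the gene of the fat-cell hormone leptin, fell by more than any other named gene except Itgad. Its values were 7.27, 8.40 and 9.25 in KD and 8.87, 11.13 and 12.01 in HFD. The groups overlapped, with a difference of -2.50 ± 0.49 (limma adjusted p = 0.00694). In SD the values ran from 7.32 over 9.09 to 11.82, so SD spanned most of both groups. Lep, Saa3, Lrg1, Tph2, Itgad, Oxtr and Plppr4 form a list drawn up from earlier results of these data, so the direction of any of them here is no independent evidence. Adipoq, the fat-cell hormone adiponectin, had 9.38, 9.80 and 10.72 in KD and 9.44, 11.49 and 12.04 in HFD (difference -1.24 ± 0.39, adjusted p = 0.252). Of 19 adipocyte markers tested, 18 were negative and 1, Lep, was called (median -0.46). In bulk tissue, fewer fat cells and less RNA of a gene per fat cell cannot be told apart.

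The adipocyte markers were lower in KD in the mean, with overlapping groups and no test of the score itself. The adipocyte score, the mean centred value of the markers, ran from -0.65 to 0.18 in KD (mean -0.33 ± 0.27) and from -0.67 to 0.88 in HFD (mean 0.29 ± 0.52; SD, n = 7 each). HFD replicate 5 lay below every KD library, and KD replicate 4 above HFD replicates 1, 5 and 7. The defining markers were well above the floor in both groups: Adipoq averaged 9.88 in KD and 11.11 in HFD, and Plin1 9.13 and 10.19. With this score as a covariate, which holds Lep itself, the difference of Lep was -1.30 (limma adjusted p = 0.00545) and that of Dgat2 was -0.70 (adjusted p = 0.106). The number of called genes was then 29, 16 higher and 13 lower, of which 20 were among the 47.

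Acute-phase proteins, which tissue and liver release during inflammation, were called lower in 3 of 10 tested members, against 0.188% of all genes. Saa3, a serum amyloid made by fat cells and macrophages, had 2.28, 2.31 and 2.34 in KD and 2.49, 3.71 and 4.50 in HFD. No KD library reached the filter value, against 6 of 7 HFD libraries, so the gene entered the test through HFD alone. The groups did not overlap, with a difference of -1.35 ± 0.18 (limma adjusted p = 7.68e-06). Against SD the difference was -0.15 in KD (adjusted p = 0.743) and 1.19 in HFD (adjusted p = 0.000141). Hp, haptoglobin, had 8.99, 9.97 and 10.72 in KD and 9.99, 12.35 and 13.33 in HFD. Its groups overlapped through HFD replicate 5 and differed by -2.20 ± 0.41 (adjusted p = 0.00474). Orm1, orosomucoid, had 4.79, 5.34 and 5.51 in KD and 5.88, 7.19 and 7.64 in HFD, with no overlap (-1.64 ± 0.33, adjusted p = 0.00832). Reads of Orm1 could in part come from its near-identical neighbour Orm2.

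The list as a whole had 9 negative differences of 10, against 48.0% of all genes, and a median of -0.68. These counts include Saa3 and Lrg1, which are also on the list from earlier results of these data. The direction of those members is no independent evidence. Serpina3n, a protease inhibitor, differed by -1.10 ± 0.31 and Lrg1 by -0.68 ± 0.19 (limma adjusted p = 0.137 and 0.13). C3 and Lcn2 differed by -0.18 and -0.06. With the adipocyte score as a covariate, Saa3 differed by -1.07 (adjusted p = 0.000166), Hp by -1.18 (adjusted p = 0.00082) and Orm1 by -0.98 (adjusted p = 0.106). No macrophage marker was called among 23 tested, of which 16 were positive (median 0.06). Trem2 and Itgax, marks of lipid-loaded macrophages, differed by -0.50 and -0.53 (adjusted p = 0.76 and 0.564). No interferon-stimulated gene was called among 31, and no cytokine or chemokine among 17.

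Tph2, Itgad and Oxtr are on the list from earlier results that holds Lep. Plppr4, on it too, differed by -0.70 and was not called (limma adjusted p = 0.235). A group of genes lay at low values in every KD library and well above them in most HFD libraries. Tph2, the neuronal enzyme of serotonin synthesis, had 3.46, 3.54 and 3.69 in KD and 3.70, 5.91 and 6.89 in HFD, touching without overlap (-1.95 ± 0.34, limma adjusted p = 0.00178). HFD stood 1.68 above SD (adjusted p = 0.039). Oxtr, the oxytocin receptor, had 4.27, 4.47 and 4.65 in KD and 4.94, 7.28 and 7.70 in HFD, with no overlap (-2.16 ± 0.41, adjusted p = 0.00474). Slc5a7, the choline carrier of cholinergic neurons, had 3.93, 4.05 and 4.19 in KD and 4.50, 6.92 and 7.32 in HFD, again separate (-2.21 ± 0.42, adjusted p = 0.00592). Itgad, an integrin subunit of macrophages, had 3.09, 3.15 and 3.201 in KD and 3.06, 6.55 and 8.55 in HFD (-2.66 ± 0.58, adjusted p = 0.0198). No KD library reached the filter value for Itgad, against 6 of 7 HFD libraries, and its exons overlap those of Cox6a2, an abundant muscle gene on the other strand. Without any 1 of HFD replicates 2, 3, 4 and 6, Itgad lost its call, with values from -2.54 to -2.21 and adjusted p from 0.0582.

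Kcnj15, a potassium channel, Cdsn, an adhesion protein of skin, and Cd1d1, which presents lipids to natural killer T cells, were also lower in KD. The differences were -1.43 ± 0.32, -1.58 ± 0.34 and -1.23 ± 0.29 (limma adjusted p = 0.0262, 0.0145 and 0.0322). In KD these genes reached 5.74, 5.16 and 7.16, and their HFD medians were 7.34, 6.55 and 8.13. In each, the lowest HFD library lay within the KD range. Over the 29 lower genes, HFD replicates 5 and 7 were among the 2 lowest HFD libraries in 22 and 23 genes. HFD replicate 4 was the highest in 15. HFD replicate 5 also had the lowest adipocyte score of the HFD libraries (-0.67) and HFD replicate 4 the highest (0.88). The score of HFD replicate 7 was 0.09. HFD replicate 1, with a score of 0.07, was among the 2 lowest HFD libraries in only 2 of the 29 genes. Whether the score accounts for this order was not tested. Without replicate 5, 72 genes were called, 54 of them lower. Without replicate 7, 59 were called. With the adipocyte score as a covariate, Tph2 (-1.47, adjusted p = 0.0278) and Oxtr (-1.36, adjusted p = 0.0372) were called, while Slc5a7 (-1.41, adjusted p = 0.0583), Itgad (-1.90, adjusted p = 0.254), Kcnj15 (-0.65, adjusted p = 0.131) and Cdsn (-0.86, adjusted p = 0.14) were not. Cd1d1 was called there at -0.50 (adjusted p = 0.0164).

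Several muscle and signalling genes were higher in KD. Kcnab1, a beta subunit of voltage-gated potassium channels, had 8.52, 8.66 and 8.92 in KD and 7.64, 7.99 and 8.15 in HFD. The groups were well apart (0.75 ± 0.11, limma adjusted p = 0.00019). Igfn1, an immunoglobulin and fibronectin protein of the Z-disc, had 8.80, 9.44 and 9.80 in KD and 7.68, 8.03 and 8.80 in HFD, touching without overlap (1.29 ± 0.26, adjusted p = 0.00832). Dkk3, a secreted protein of the Dickkopf family, had 8.95, 9.33 and 9.93 in KD and 8.30, 8.503 and 8.87 in HFD (0.85 ± 0.18, adjusted p = 0.0106). Actc1, the cardiac actin of embryonic muscle, had 10.68, 11.07 and 12.30 in KD and 9.92, 10.44 and 10.67 in HFD (0.85 ± 0.20, adjusted p = 0.0412). Its reads may be shared with Acta1, the skeletal actin, which differed by 0.18 (adjusted p = 0.85). Actc1 was the 1 called member among 22 embryonic and denervation genes.

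None of these 4 genes differed from SD by a called amount in either group. Kcnab1 differed from SD by 0.22 in KD (limma adjusted p = 0.482) and by -0.53 in HFD (adjusted p = 0.0515). Dkk3 stood at 0.34 in KD (adjusted p = 0.488) and -0.51 in HFD (adjusted p = 0.334). Igfn1 stood at 0.94 in KD (adjusted p = 0.117) and -0.35 in HFD (adjusted p = 0.695). For Actc1 the values were 0.32 in KD (adjusted p = 0.544) and -0.53 in HFD (adjusted p = 0.418).

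Dusp26, a phosphatase of MAP kinases, Stk26, a protein kinase, and Spns2, a sphingosine 1-phosphate exporter, were called at 0.70 ± 0.16, 0.56 ± 0.11 and 0.53 ± 0.13 (limma adjusted p = 0.022, 0.00832 and 0.0444). Stk26 and Spns2 had every KD library above every HFD library, and Dusp26 overlapped. Among the lower genes, Aldh1l1, a folate enzyme of one-carbon metabolism, had 6.99, 7.39 and 7.72 in KD and 7.64, 8.06 and 8.42 in HFD (difference -0.62 ± 0.14, adjusted p = 0.022). It stood -0.63 from SD in KD (adjusted p = 0.0185) and -0.003 in HFD (adjusted p = 0.995). It was the 1 called member of 20 tested serine and one-carbon genes, whose median was -0.001. Bcar3, an adaptor of integrin signalling, differed by -0.67 ± 0.15 (adjusted p = 0.0239), and Foxo6os, an antisense RNA at Foxo6, by -0.80 ± 0.13 without overlap (adjusted p = 0.000639).

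Each of the following genes was named after its values were seen. Il1r1, the receptor of interleukin 1, ran from 9.08 to 9.67 in KD and from 8.83 to 9.20 in HFD (difference 0.40 ± 0.09, limma adjusted p = 0.0239). Hoxa4, a positional homeobox factor, differed by 0.39 ± 0.09 (adjusted p = 0.0239) and stood 0.49 above SD in KD (adjusted p = 0.00153). Hdac9, a class IIa histone deacetylase, differed by -0.39 ± 0.09 (adjusted p = 0.0392), Stc2, a secreted glycoprotein, by -0.52 ± 0.12 (adjusted p = 0.0252), and Hfe, a regulator of iron uptake, by -0.26 ± 0.06 (adjusted p = 0.0444). Ubd and Mmp12, a ubiquitin-like modifier and a macrophage elastase, differed by -1.98 ± 0.44 and -1.85 ± 0.44 (adjusted p = 0.0239 and 0.0454), with KD values at 3.62 to 4.12 and 3.80 to 3.98. Il1r1 and Hoxa4 lost their calls without any 1 of 6 libraries (adjusted p up to 0.108 and 0.0985). Stc2 and Ubd lost theirs without any 1 of 7 (up to 0.0922 and 0.0969). Hdac9 and Hfe lost theirs without any 1 of 10 (up to 0.176 and 0.163). Mmp12 lost its call unless HFD replicate 5 or 7 was the one left out (up to 0.168). With the adipocyte score as a covariate, Il1r1 kept its call (limma adjusted p = 0.0338). Calls ended there for Hdac9 (0.153), Hoxa4 (0.179), Stc2 (0.296), Hfe (0.313), Ubd (0.319) and Mmp12 (0.425). With the 14 libraries fitted alone, Stc2 kept its call (0.0292), while Il1r1 (0.0644), Hoxa4 (0.0621), Hdac9 (0.0858), Hfe (0.0956), Ubd (0.0815) and Mmp12 (0.0606) did not. The remaining 11 called genes were C6, Wfdc21, Atp1a4, Glyctk and Cuzd1, all lower, and 6 genes with placeholder symbols, of which Gm14308 and Gm32200 were lower and Gm9115, Gm10603, Gm28800 and 8430426J06Rik were higher. For Gm9115 no HFD library reached the filter value, against 6 of 7 KD libraries, so it entered the test through KD alone.

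**Figure D4:**
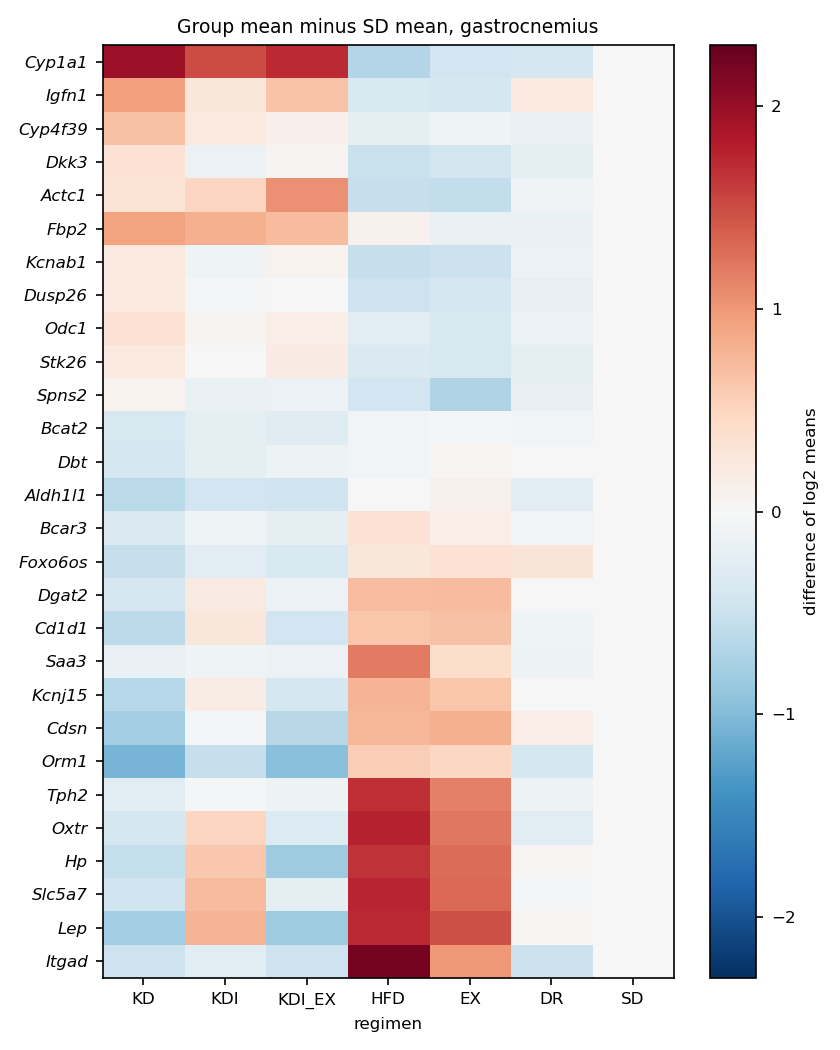
Group mean minus the SD mean, in log2 units, for 28 called genes named by the rule (rows), in 7 gastrocnemius regimens (columns): KD, HFD then KD (KDI), HFD then KD with a wheel (KDI_EX), HFD, HFD with a wheel (EX), HFD then SD (DR) and SD, which is 0 by construction. Cyp1a1 is high in the 3 columns on KD at sampling, and the Lep, Hp and Oxtr rows are high in HFD and EX.

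Fibre-type genes differed in the mean without a call. The 14 slow fibre genes tested all had a negative difference, with a median of -0.88, and none was called. An unadjusted p under 0.05 was found for 2 of the 14, against 892 of all 15440 genes. Myh7, the slow myosin, differed by -1.34 (limma adjusted p = 0.88). The slow fibre score ran from -1.62 to 0.28 in KD and from -0.66 to 0.97 in HFD. HFD replicates 1 and 7 lay within the KD range, and the other 5 HFD libraries, from 0.57 to 0.97, lay above every KD library. The 16 fast fibre genes had a median of 0.06 and no call. With the slow fibre and myelin scores as covariates, 62 genes were called, of which 38 were among the 47. Dkk3 (0.70, adjusted p = 0.0562), Actc1 (0.76, adjusted p = 0.0849) and Itgad (-2.48, adjusted p = 0.0518) were then not called.

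Markers of nerve branches and connective tissue also leaned one way. All 20 myelin and Schwann cell markers were positive (52.0% over all genes), with a median of 0.38 and no call. The myelin score ran from -0.42 to 0.69 in KD and from -0.56 to 0.36 in HFD. All 14 markers of fibro-adipogenic progenitors and all 10 tendon markers were positive, with medians of 0.17 and 0.16 and no call. The part of the myelin markers in the called differences was not tested beyond the covariate fit given above, which also held the slow fibre score. The part of the progenitor and tendon markers was not tested.

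The same contrast in sciatic nerve rested on 7 KD and 6 HFD libraries, and 6 of 16947 genes were called there (0.0354%). Cyp1a1 differed by 1.74 ± 0.25 in nerve (limma adjusted p = 0.000367), beside 2.64 in muscle. Saa3 differed by -2.65 ± 0.47 (adjusted p = 0.00896), Tph2 by -3.28 ± 0.53 (adjusted p = 0.00162) and Itgad by -3.78 ± 0.74 (adjusted p = 0.0262). Saa3, Tph2 and Itgad are on the list from earlier results of these data, so their direction in nerve is no independent evidence. Of the 47 genes called in muscle, 43 were tested in both tissues. The difference between tissues was called for 1 of 14764 genes (0.00677%): Kcnab1 differed by 0.75 in muscle and by 0.05 ± 0.07 in nerve, and muscle minus nerve was 0.71 ± 0.13 (adjusted p = 0.0177). For Dkk3 the difference between tissues was 0.87 ± 0.19 (adjusted p = 0.162), with -0.02 in nerve. Fbp2 averaged 4.42 ± 0.89 in KD and 4.21 ± 0.62 in HFD nerve (SD, n = 7 and 6), and its difference between tissues of 0.62 ± 0.45 was not called (adjusted p = 1). The labels do not tie nerve to muscle libraries, and the standard errors treat the tissues as independent.

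**Figure D5:**
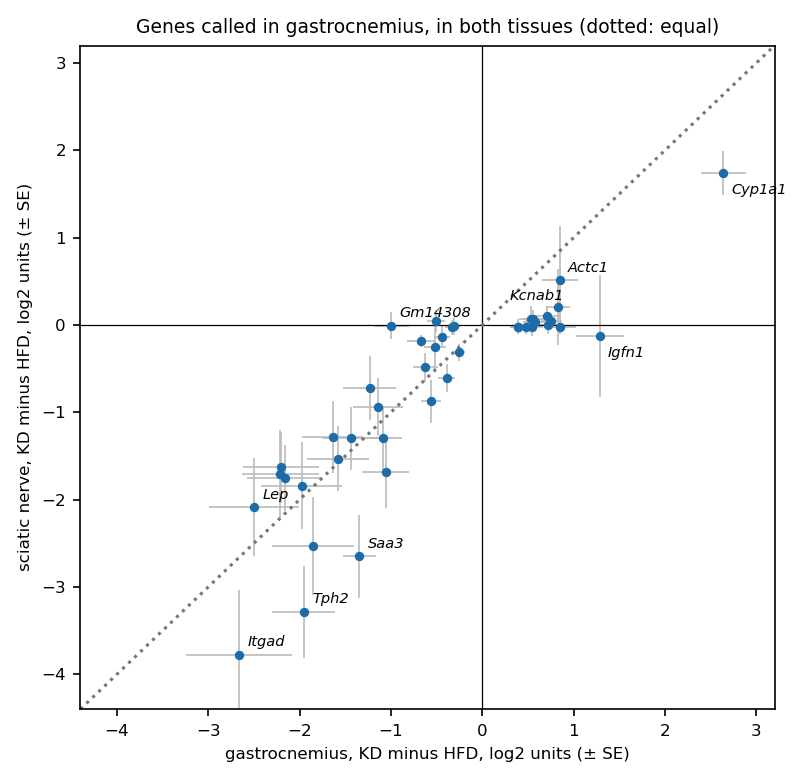
Difference KD minus HFD in log2 units in gastrocnemius (horizontal) and sciatic nerve (vertical) for 42 of the 43 genes called in gastrocnemius and tested in both tissues, with 1 SE each way; the dotted line marks equal differences. Cyp1a1 is high in both, Saa3, Tph2 and Itgad are low in both, and Kcnab1 lies near 0 in nerve. Saa3, Tph2 and Itgad are on the list from earlier results of these data.

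Calls differed in how far they rested on single libraries. When each of the 14 libraries was left out in turn, 26 to 72 genes were called, and no called gene changed sign. Cyp1a1, Fbp2, Kcnab1, Cyp4f39, Foxo6os, Saa3, Hp, Oxtr and Lep were among 12 genes that were called under all 24 alternatives. Dkk3 lost its call without KD replicate 3 (0.76, limma adjusted p = 0.053). Cdsn lost it without HFD replicate 4 or 6 (-1.45 and -1.46, adjusted p from 0.0644). Actc1 lost it without any 1 of 10 libraries, and kept it only without KD replicate 2, 4 or 6 or HFD replicate 7 (lost at 0.66 to 0.87, adjusted p up to 0.178). Odc1 lost it without any of 8 (KD replicates 1, 2, 3 and 7, HFD replicates 2, 4, 6 and 7; adjusted p up to 0.144) and Dusp26 without any of 8 (KD replicates 1, 3, 5 and 7, HFD replicates 2, 3, 4 and 6; adjusted p up to 0.0926). Kcnj15 lost it without any of 8 (KD replicates 1, 2, 3 and 7, HFD replicates 2, 3, 4 and 6; adjusted p up to 0.134), Spns2 without any of 9, all but KD replicates 2, 4 and 5 and HFD replicates 3 and 5 (adjusted p up to 0.159), and Cd1d1 without any of 9, all but KD replicates 4 and 5 and HFD replicates 1, 5 and 7 (adjusted p up to 0.148). Bcar3 lost it without any of 7 (KD replicates 1, 5 and 7, HFD replicates 2, 3, 4 and 6; adjusted p up to 0.115) and Aldh1l1 without any of 6 (KD replicates 3 and 7, HFD replicates 2, 3, 4 and 6; adjusted p up to 0.0994).

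Other settings ended some calls without a change of direction. With the 14 libraries fitted alone, 37 genes were called, of which 26 were among the 47. Bcat2 then had a limma adjusted p of 0.117, Tph2 0.0537 and Aldh1l1 0.0587. Actc1 (0.088), Dusp26 (0.0606), Odc1 (0.0788), Kcnj15 (0.0606), Bcar3 (0.0978) and Itgad (0.115) were not called there either. With the adipocyte score as a covariate, calls ended for Igfn1 (1.02, adjusted p = 0.123), Dkk3 (0.74, adjusted p = 0.106), Stk26 (0.43, adjusted p = 0.135), Dusp26 (0.46, adjusted p = 0.283) and Actc1 (0.70, adjusted p = 0.284). They ended as well for Odc1 (0.47, adjusted p = 0.254), Spns2 (0.41, adjusted p = 0.361), Aldh1l1 (-0.35, adjusted p = 0.254) and Bcar3 (-0.37, adjusted p = 0.281). Centring each library on its median ended the calls of Odc1 (adjusted p = 0.0527), Spns2 (0.0883) and Hoxa4 (0.0692).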

How the data were processed

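Each deposited file lists gene symbols with a log2 expression level. No source used here says which transform the authors applied to reach these log2 levels, and counts and depth are not given, so no counting error is printed. The levels behave like a regularised log; in that case differences of low genes may be shrunken. Tools named in the submitters' processing notes are STAR 2.7.8a, RSEM 1.3.3, DESeq2, cutadapt 2.3, MultiQC 1.7 and FastQC 0.11.8, with build GRCm38. RNA was taken with TRIzol and read from both ends at 151 bp, per the labels' protocols.

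Differences are two-sided tests from limma 3.58.1 in R 4.3.3 (with statmod 1.5.0), fitted over all 49 gastrocnemius libraries in 7 groups with a trended, robust prior variance; ± after a difference is its SE. Genes at the log2 of 10 or more in at least 6 of the 14 KD and HFD libraries were tested. Sciatic nerve was fitted on its own, over 47 libraries. The difference between tissues used combined standard errors with Satterthwaite degrees of freedom. Both steps were tested on simulated data in which genes varied independently. Such data hold no shifts shared by many genes of a library, so they do not give the rate of false calls here.

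Gene positions are from GENCODE on GRCm38, which held 15171 of the 15440 tested symbols. The comparison, 49 gene lists and all rules were chosen with earlier results of these data known. Named genes were up to 12 called genes each way by size of difference (mean log2 value of at least 5, medians differing the same way by at least 50% of the fitted change, no placeholder symbol), up to 4 called members of a list, and 25 genes whatever their p. A score is the mean of a list's values, each gene centred on its mean over the gastrocnemius libraries. Alternatives changed the libraries fitted, the filter, weights, scaling, covariates and prior, and left out each KD and HFD library in turn. A few genes are not reported here.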

Additional observations from a re-analysis of the deposited data

Results flagged for a closer look

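Libraries far from the others of their group were looked for in 92 sets of 7 values (46 genes in KD and in HFD), and 6 stood out by Dixon's criterion, where chance gives about 1 in 20. Actc1 was 12.3 in KD replicate 7, with the next KD library at 11.23. Stk26 was 8.058 in the same library, with the next at 7.75. Bcat2 was 9.822 there, below the next lowest KD library at 10.1. Orm1 was 4.787 in KD replicate 3, below the next at 5.216. Cyp1a1 was 5.764 in HFD replicate 3, above the other HFD libraries, which reached 5.556. Ivd was 11.3 in HFD replicate 1, below the next at 11.41. Kcnab1 differed between tissues in the same contrast, by 0.7066 log2 units for muscle minus nerve (limma estimates, adjusted p = 0.0177).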

How the results depend on the processing

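No paired analysis was possible because no replicate number in the labels ties a KD to an HFD library. No called gene changed sign under any of the 24 alternatives. Changes of the filter or prior, and fitting the 14 libraries alone, leave a difference unchanged by construction and so cannot change its sign. Of the 47 genes, 12 were called under all alternatives and 35 lost the call under 1 or more. Library quality weights gave 124 called genes, 47 higher and 77 lower, of which 44 were among the 47. With the adipocyte score as a covariate 29 were called, 13 of them lower, and 55.17% of the calls were higher, against 38.3%. Leaving out 1 library gave 26 to 72 called genes, 10 to 18 higher and 15 to 54 lower. The difference between tissues was called for 2 genes, instead of 1, where only the KD and HFD libraries of each tissue were fitted. Why the counts moved was not tested.

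The sign changes listed here were of uncalled values. Slc25a20 was 0.008887 with quality weights, 0.006259 with quantile normalisation, 0.1122 with the myelin and slow fibre scores and -0.04704 to 0.02371 with 1 library left out. With those scores Slc16a1 was 0.09037. With the adipocyte score Cpt1b was -0.01188, Acaca 0.09494 and Scd1 0.2066. The median of the serine and one-carbon list was 0.002984 with quantile normalisation and 0.01081 with the adipocyte score. With 1 library left out, Cpt1b ran from -0.01568 to 0.07164 and Angptl4 from -0.08578 to 0.08026.

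Depth is unknown, so a low value cannot be told from an absent transcript.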
